A study of Homo sapiens with 8 samples.

Results

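Methylated DNA was captured by MBD-seq, massively parallel sequencing of sheared DNA fragments that bind the methyl-CpG-binding domain of MBD2, in 8 neuroblastoma (NB) cell lines, which are established cultures of tumor cells. The intergenic peaks far from genes described here, called distal peaks, are the autosomal peaks whose midpoint lies at least 10 kb outside every gene body of any type in GENCODE on GRCh37, without those in a window around *MYCN*. The rule uses only position and left 107757 distal peaks among 700751 autosomal peaks outside the *MYCN* window (15.4%). *MYCN* amplified (MNA) lines were CHP-902R, IMR-32, LAN-2 (LA-N-2 in its label) and N206, and *MYCN* single copy lines were SK-N-AS, SJNB-1, SH-SY5Y and CLB-GA, whose labels read not amplified. The labels name no treatment. Each line is a single culture sequenced as 1 sample, so 4 lines served as the replicates of each *MYCN* group and no spread within a line could be had. The deposited lists held 711243 peaks in all, between 70816 and 112412 per line, and no read counts. The depth behind a single peak is therefore unknown, and the absence of a peak does not show that a sequence was unmethylated.

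Most CpG in the human genome are methylated, outside the CpG islands that surround many promoters. Sequence far from genes is poor in CpG and rich in repeats, among them Alu elements, satellite DNA near the centromeres and microsatellites, and it also holds enhancers of developmental genes. The capture needs several methylated CpG on a fragment, so a peak is read here as CpG that are both present and methylated. An input control is not given in the sources used here. The part of copy number and of the mapping of repeats in the peaks was not tested. In tumor cells, loss of methylation is known to be widespread in intergenic sequence.

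Sequences under distal peaks with a peak in all 8 lines are given first, since these 4 are among the regions of the highest score percentiles. They are printed as 200 bp of the GRCh37 plus strand at the middle of the stretch common to the highest peaks of the lines, with each CpG in capitals. The first pair comes from the regions of the highest mean percentiles, on chromosome 1 at the edge of the centromere gap and on chromosome 7 at 913 kb from it, and the others come from chromosomes 10 and 17:
chr1:121484787-121484986: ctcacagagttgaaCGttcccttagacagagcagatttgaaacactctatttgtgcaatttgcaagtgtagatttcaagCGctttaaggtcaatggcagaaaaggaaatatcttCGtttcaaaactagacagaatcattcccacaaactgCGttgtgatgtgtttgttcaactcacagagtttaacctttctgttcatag
chr7:61969059-61969258: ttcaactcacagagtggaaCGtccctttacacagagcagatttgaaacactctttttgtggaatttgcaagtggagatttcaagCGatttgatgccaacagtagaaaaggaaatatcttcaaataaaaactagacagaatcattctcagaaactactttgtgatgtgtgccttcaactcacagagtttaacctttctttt
chr10:42599670-42599869: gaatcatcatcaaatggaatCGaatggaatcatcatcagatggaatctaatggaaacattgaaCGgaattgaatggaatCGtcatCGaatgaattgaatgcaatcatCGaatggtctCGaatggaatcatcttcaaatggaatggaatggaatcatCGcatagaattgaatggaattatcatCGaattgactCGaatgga
chr17:54821103-54821302: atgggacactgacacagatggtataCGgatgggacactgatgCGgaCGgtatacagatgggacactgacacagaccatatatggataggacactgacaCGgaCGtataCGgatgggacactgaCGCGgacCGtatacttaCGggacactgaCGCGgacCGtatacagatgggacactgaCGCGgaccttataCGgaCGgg

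The chromosome 1 and 7 windows held only 4 and 2 CpG and shared the 26-base run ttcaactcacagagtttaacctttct. Their regions repeated with a period of 171 and 169 bp. A unit of 171 bp is that of alpha satellite, the repeat of human centromeres. The chromosome 10 window, with 9 CpG, consists of degenerate GGAAT units, the unit of a satellite found beside centromeres. The chromosome 17 window held 17 CpG in a tandem repeat of 28 bp. Further sequences with a peak in all 8 lines were a TG-rich stretch on chromosome 13 and the shared region farthest from any gene, on chromosome 3:
chr13:112629707-112629906: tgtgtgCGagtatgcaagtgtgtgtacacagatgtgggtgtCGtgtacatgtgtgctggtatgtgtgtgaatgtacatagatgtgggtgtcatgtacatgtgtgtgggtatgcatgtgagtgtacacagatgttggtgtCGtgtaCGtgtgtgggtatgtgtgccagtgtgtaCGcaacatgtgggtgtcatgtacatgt
chr3:104675545-104675744: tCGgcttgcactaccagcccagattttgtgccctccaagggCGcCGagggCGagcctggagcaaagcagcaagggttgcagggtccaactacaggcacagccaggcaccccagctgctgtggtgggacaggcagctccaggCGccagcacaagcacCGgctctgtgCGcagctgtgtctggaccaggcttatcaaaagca

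The next set is of windows with a peak in 4 lines of a *MYCN* group and in no line of the other, shown because these regions separate the groups, on chromosome 5 for the MNA lines and on chromosome 2 for the single copy lines:
chr5:22901062-22901261: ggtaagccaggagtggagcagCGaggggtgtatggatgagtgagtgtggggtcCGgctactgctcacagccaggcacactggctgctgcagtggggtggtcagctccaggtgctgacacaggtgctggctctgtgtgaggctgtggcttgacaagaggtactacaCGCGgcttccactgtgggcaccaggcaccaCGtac
chr2:154078120-154078319: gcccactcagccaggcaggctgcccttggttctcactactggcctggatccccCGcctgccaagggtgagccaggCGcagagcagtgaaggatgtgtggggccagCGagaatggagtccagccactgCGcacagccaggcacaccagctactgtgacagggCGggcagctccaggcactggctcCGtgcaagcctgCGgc

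The chromosome 5 window and the chromosome 2 window shared the 15-base run cacagccaggcacac.

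The number of distal peaks differed between lines more than their share. Among MNA lines, CHP-902R had 15892 distal peaks, LAN-2 15666, N206 14205 and IMR-32 13642. Among single copy lines, SK-N-AS had 14581, SH-SY5Y 12335, SJNB-1 10801 and CLB-GA 10635. The groups overlapped only through SK-N-AS, which exceeded N206 and IMR-32. The mean was 14851 ± 1100 peaks in MNA lines and 12088 ± 1830 in single copy lines (SD, n = 4 each). This difference of 2763 peaks did not pass the test (two-sided exact permutation test over the 70 splits, p = 0.0857, adjusted p = 0.107 over 10 tests). Without SK-N-AS the difference was 3594 peaks (exact permutation test, p = 0.0286, the smallest p that 4 lines against 3 allow). Leaving out the only line of overlap fixes that p in advance, so no conclusion is drawn from it. With lists cut to an equal length of 70006 peaks, the difference was 383 peaks (exact permutation test, p = 0.486).

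As a share of the line's own autosomal peaks, distal peaks made up 16.4% in CHP-902R, 15.6% in IMR-32, 15.6% in N206 and 14.3% in LAN-2. The single copy lines had 17.2% (SK-N-AS), 15.4% (SJNB-1), 14.7% (SH-SY5Y) and 13.8% (CLB-GA). The highest and the lowest share were thus both in single copy lines, and the group means of 15.5 ± 0.88% and 15.3 ± 1.43% (SD, n = 4 each) did not differ beyond the spread (exact permutation test, p = 0.829, adjusted p = 0.886).

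**Figure D1:**
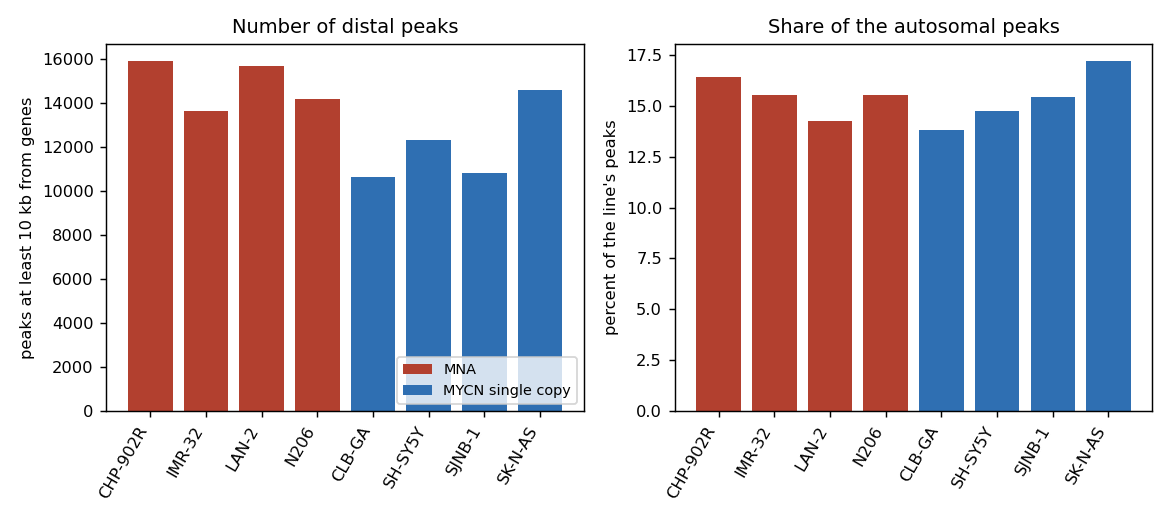
Number of distal peaks (left, peaks per line) and their share of the line's autosomal peaks (right, percent), with 1 bar per line, MNA in red and *MYCN* single copy in blue. Numbers run from 10635 in CLB-GA to 15892 in CHP-902R, whereas shares stay between 13.8% and 17.2%.

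Distal sequence carried fewer peaks per Mb than the rest of the autosomes in every line. It comprised 639 Mb, 23.8% of the autosomal sequence but 18.1% of its CpG, with 0.756 CpG per 100 bp against 1.07 in the other sequence. Distal peak density ran from 16.6 peaks per Mb in CLB-GA to 24.9 in CHP-902R, and in the other sequence density was lowest in SJNB-1 (29.0) and highest in LAN-2 (46.0). On the log2 scale, distal density less other density was -0.79 ± 0.12 (SD, n = 8), or 0.58-fold, and below 0 in 8 of 8 lines (two-sided exact sign-flip permutation test, p = 0.0078, the smallest that 8 lines allow, adjusted p = 0.0112).

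The difference was smaller at equal CpG content of 200 bp windows. Cover, the percent of 200 bp windows whose midpoint lay in a peak, was 1.09 ± 0.176% in distal windows and 2.08 ± 0.307% in the others (SD, n = 8). When the other windows were weighted to the CpG counts of the distal ones, their cover was 1.34% on average, from 0.999% in CLB-GA to 1.62% in LAN-2. Distal cover then remained lower in 8 of 8 lines, at 0.812-fold, or -0.30 ± 0.096 on the log2 scale (SD, n = 8, exact sign-flip permutation test, p = 0.0078, adjusted p = 0.0112). Restricted to scores of at least 100, the difference was smaller, at -0.09 (exact p = 0.0625), and did not pass the test. Most of the other windows lay in gene bodies (8453500 of 10216808). With each zone weighted to the CpG counts of all autosomal windows, mean cover was 1.97% in genes and 1.63% within 10 kb of them. At 10 to 50 kb it was 1.69%, so mean distal cover there was below that of gene bodies but not below that of sequence next to genes. The log2 ratio of the lines ran from -0.44 in LAN-2 to -0.16 in SK-N-AS. Its group means were -0.31 ± 0.11 in MNA and -0.29 ± 0.092 in single copy lines (SD, n = 4 each), with an exact permutation p of 0.886.

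The deficit was largest in windows with few CpG. Peaks are wider than these windows, with a median distal width of 410 to 528 bp, so a window without CpG can lie in a peak through CpG beside it. CpG content beyond the 200 bp window was not matched. Windows without CpG had a cover of 0.0734 ± 0.0264% in distal and 0.122 ± 0.0363% in other sequence (SD, n = 8), a 0.585-fold difference. At 3 CpG the values were 1.66 ± 0.433% and 2.32 ± 0.545%, or 0.707-fold. At 6 to 9 CpG they were 10.5 ± 1.44% and 11.3 ± 1.70%, or 0.923-fold, with distal cover lower in all lines but 2. Each of these classes passed the exact sign-flip test (adjusted p over 8 classes of 0.0104 for the first and second and 0.0391 for the last).

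At the other end the order turned. Windows with 15 or more CpG, the density of CpG islands, were covered in 18.3 ± 1.94% of the distal and 10.6 ± 1.77% of the other windows (SD, n = 8), 1.74-fold higher in 8 of 8 lines (exact sign-flip permutation test, adjusted p = 0.0104). These were 4862 windows, 0.152% of distal sequence. When windows within 2 kb of a transcriptional start site (TSS) were left out of the other sequence, its cover in this class was 19.6 ± 2.86%, and distal cover was 0.938-fold of it (adjusted p = 0.0714 in the same exact test). In the class of 10 to 14 CpG the distal to other ratio was 1.09-fold with TSS windows and 0.997-fold without them. A 45 bp stretch at the centre of distal windows with 15 or more CpG occurred once in the genome in 51.2% of sampled windows, against 86.2% in the other sequence. Over all CpG counts these shares were 91.4% and 90.9%, and with such unique windows alone the log2 cover ratio at equal CpG content was -0.31.

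**Figure D2:**
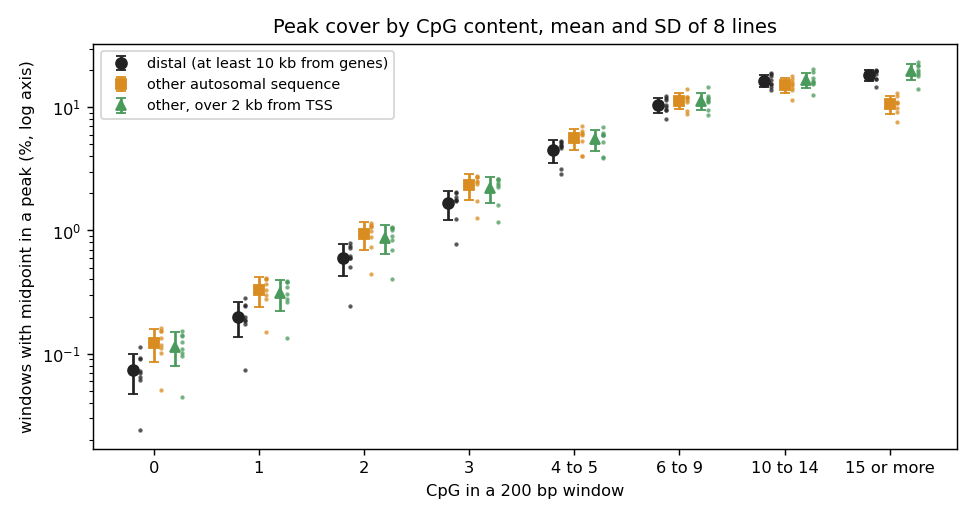
Percent of 200 bp windows with their midpoint in a peak (log axis) against the number of CpG in the window, for distal sequence, other autosomal sequence and other sequence over 2 kb from a TSS. Large symbols with bars are the mean and SD of 8 lines and small dots are lines. Mean distal cover is lower up to 9 CpG and above the other sequence at 15 or more CpG, where leaving out TSS windows brings the other sequence to 19.6%.

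Within distal sequence, cover over 200 kb from genes was lower than closer to them. Of the distal peaks, 77984 lay 10 to 50 kb from a gene, 27685 lay 50 to 200 kb away and 2088 lay over 200 kb away, of which 35 were over 500 kb away. The class over 200 kb held 1.59 to 2.23% of the distal peaks of a line and 3.44% of the distal sequence. Cover over 200 kb from genes was 0.766% in CHP-902R, 0.640% in N206, 0.597% in IMR-32 and 0.567% in LAN-2. Among single copy lines, SK-N-AS had 0.633%, SJNB-1 0.506%, SH-SY5Y 0.472% and CLB-GA 0.386%. The sequence 10 to 50 kb from genes, weighted to the same CpG counts, had a cover of 0.520 to 0.946% and was higher in 8 of 8 lines. The log2 ratio of far over near was -0.48 ± 0.20 (SD, n = 8), or 0.717-fold (exact sign-flip permutation test, p = 0.0078, adjusted p = 0.0112). With both classes weighted to the CpG counts of all autosomal windows, the ratio was -0.26 ± 0.22 (SD, n = 8, exact p = 0.0234) and below 0 in 7 of 8 lines. CHP-902R was the exception, with a cover of 1.88% at 10 to 50 kb and 2.01% over 200 kb. Restricted to scores of at least 100, the ratio was -0.08 (exact p = 0.523) and did not pass the test.

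**Figure D3:**
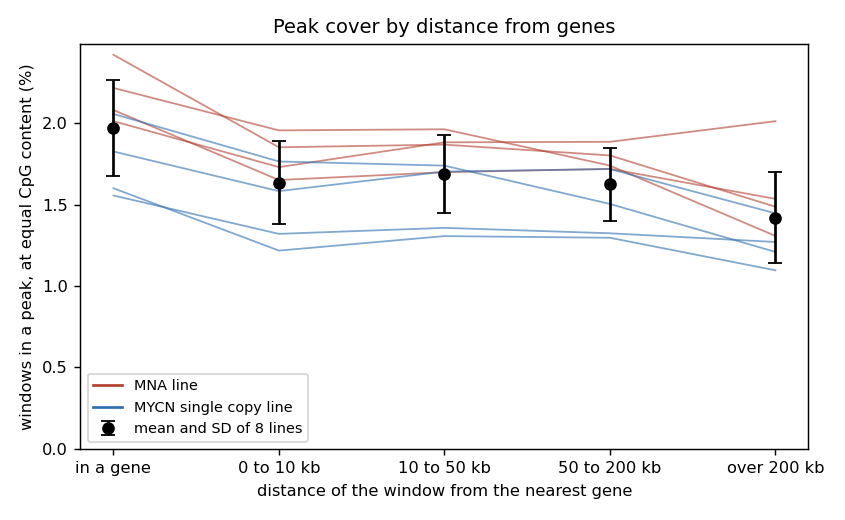
Cover (percent of 200 bp windows in a peak) by distance of the window from the nearest gene, each zone weighted to the CpG counts of all autosomal windows, with 1 thin line per cell line and the mean and SD of 8 lines in black. The mean is 1.97% in genes, 1.63% within 10 kb of them, 1.69% at 10 to 50 kb, 1.62% at 50 to 200 kb and 1.42% over 200 kb, but CHP-902R is higher over 200 kb (2.01%) than at 10 to 50 kb (1.88%).

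Compared with the rest of a line's list, distal peaks were shorter and had higher scores. The median width, lowest in CLB-GA (410 bp) and highest in IMR-32 (528 bp), was 14 to 25 bp below that of the other peaks in each line (mean difference -20.9 bp, n = 8). Scores of the authors rise as the p-value falls and were compared only as percentiles within a list. The median distal peak stood at percentile 53.6 ± 1.31 (SD, n = 8) and the median other peak at 49.1 to 49.8, so that distal peaks stood higher in 8 of 8 lines. Scores of 100 or more were found for 17.7 ± 4.41% of the distal peaks (SD, n = 8) and 15.6% of the other peaks. Each of these differences had an exact sign-flip p of 0.0078 (adjusted p = 0.0112 for width and percentile over 10 tests, and 0.0104 for the share over 8 sequence and score measures).

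The sequence under distal peaks was poorer in CpG and more repetitive. A distal peak had a median of 2.57 ± 0.260 CpG per 100 bp and another peak 2.68 ± 0.217 (SD, n = 8), lower in 8 of 8 lines (difference -0.10, exact sign-flip permutation test, p = 0.0078, adjusted p = 0.0112). Fewer than 1.5 CpG per 100 bp were found in 10.3 ± 4.63% of the distal peaks, from 2.29% in CLB-GA to 17.6% in SK-N-AS, against 7.05 ± 3.31% of the others. A repeat period, counted where at least 50% of the bases in the central 400 bp of the merged region recurred at a fixed distance of up to 200 bp, was found in 5.34 ± 0.801% of the distal and 3.75 ± 0.482% of the other peaks. A period of 2 bp was found in 1.09 ± 0.293% and 0.594 ± 0.156%. All 45 bp stretches examined, 5 per region, occurred once in the genome for 53.4 ± 3.68% of the distal and 56.2 ± 2.89% of the other peaks. Each of these 4 measures differed in the same direction in 8 of 8 lines (exact sign-flip permutation test, adjusted p = 0.0104 over 8 measures).

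Peaks with the GC content and CpG frequency of a CpG island did not differ beyond the spread between lines. They made up 7.26 ± 2.77% of the distal and 8.19 ± 1.96% of the other peaks (SD, n = 8), lower in 7 of 8 lines (exact sign-flip permutation test, adjusted p = 0.0625). CLB-GA was the exception, with 13.3% of its distal and 12.2% of its other peaks. Peaks with over 4 CpG per 100 bp made up 10.8 to 24.9% of the distal and 12.3 to 23.4% of the other peaks, lower among distal peaks in 6 of 8 lines (adjusted p = 0.133 in the same exact test).

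Distal peaks were shared by fewer lines. Between 62.9% (SK-N-AS) and 74.0% (CLB-GA) of the distal peaks of a line overlapped a peak of another line, 1.35 to 5.90 percentage points less than for its other peaks (mean difference -3.51 points, SD 1.34, n = 8, exact sign-flip permutation test, p = 0.0078, adjusted p = 0.0112). Overlapping peaks of different lines were merged, which left 58505 distal regions among 362544 regions. Of the distal regions, 34554 (59.1%) had a peak in 1 line, and 293 had a peak in all 8 lines. These 293 are 0.501% of the distal regions, beside 0.648% of all regions. Any pair of lines had a Jaccard index, the length covered in both divided by the length covered in either, of 0.102 to 0.145 over distal peaks (median 0.127, 28 pairs). It was 0.127 on average within the *MYCN* groups and 0.128 between them (exact permutation test over 35 splits, p = 0.657).

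What distal regions consisted of changed with the number of lines. A repeat period was found in 562 of 34554 regions with a peak in 1 line (1.63%), in 146 of 2777 with a peak in 4 lines (5.26%) and in 99 of 293 with a peak in all 8 (33.8%). The same shares were 1.39%, 3.58% and 17.7% in the other regions. A period of 2 bp accounted for 33 of the 99 periodic distal regions in all 8 lines. Counts were made only of CA with TG, GA with TC, TA, and CG, and among these CA with TG was the most frequent in each of the 33. Regions in all 8 lines were also wider, with a median of 1359 bp against 406 bp for those in 1 line. Merging itself widens a region with each further peak. They had 2.88 against 2.17 CpG per 100 bp. Only 15 of the 293 (5.12%) had the composition of a CpG island, against 20.6% of the other regions in all 8 lines.

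The doubled pentamer GGAATGGAAT, searched on both strands in the central 400 bp, was held by 3 of the 293 distal regions in all 8 lines (1.02%), by 0.223% of those in 1 line and by 0.224% of the stretches of the same length sampled over all distal sequence. These shares are a description without a test.

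**Figure D4:**
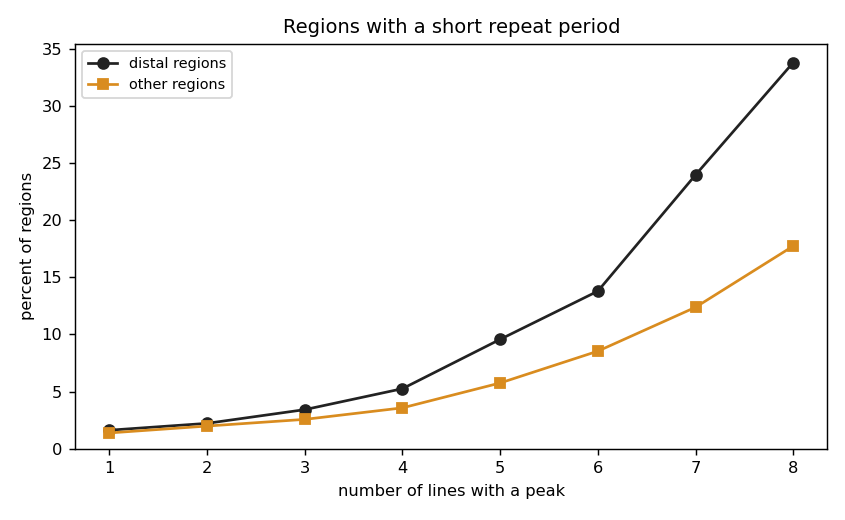
Percent of merged regions with a repeat period against the number of lines with a peak, distal regions in black and other regions in orange. The periodic share of distal regions climbs from 1.63% to 33.8% and that of the other regions from 1.39% to 17.7%.

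The 10 distal regions in all 8 lines with the highest mean score percentile were led by satellite DNA. Of these, 5 lay within 1 Mb of a gap of at least 1 Mb in the chromosome sequence. The first, chr1:121483662-121485537, reached into the gap and held 1.60 CpG per 100 bp. Its highest peak scored 3227.04 in CHP-902R, 3100 in LAN-2, 3100 in IMR-32 and 2104.59 in N206. In the single copy lines the scores were 3100 (SK-N-AS), 2822.64 (SH-SY5Y), 2127.84 (SJNB-1) and 663.77 (CLB-GA). Exactly 3100 was deposited for LAN-2, IMR-32 and SK-N-AS. Whether this is an upper limit of the score is not given in the sources used here, so these values do not order the lines. The region held the top distal peak of 6 lines. In SJNB-1 the top distal peak lay in chr7:61967275-61970775, 913 kb from the gap, and scored 2608.07. Also beside gaps were chr6:58775966-58780071, with a period of 171 bp, and chr10:42596643-42600801. The reads of such repeats map to few or many copies depending on the settings of the aligner, and how this was handled is not given in the sources used here. Without regions within 2 Mb of a long gap, 285 of the 293 distal regions in all 8 lines remained.

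Other leading regions lay far from the centromeres. The region chr17:41398678-41401429, 14.7 kb from the long noncoding RNA gene *LINC00910*, held 3.85 CpG per 100 bp without a repeat period and gave CLB-GA its top distal peak (score 1073.77). The region chr17:54820754-54821686, the tandem repeat shown above, lay 47.6 kb from *C17orf67*, its nearest gene of any type, with scores of 231 to 399. The region chr13:112628603-112630273 had a period of 2 bp and lay 65.5 kb from its nearest gene of any type, a microRNA gene. The nearest protein-coding gene, at 91.2 kb, was *SOX1*, which codes for a transcription factor of neural progenitors. Scores of this region were 140 to 554. The region chr6:26798260-26799524 had a period of 12 bp and lay 39.7 kb from *GUSBP2*. The distal region in all 8 lines farthest from any gene was chr3:104675322-104676293, 409 kb from *ALCAM*, which codes for a cell adhesion molecule. Its scores were 52.9 to 158.

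Few distal regions separated the *MYCN* groups. A peak in all 4 MNA lines and in no single copy line was found in 53 distal regions (0.0906%), beside 0.121% of all regions. The opposite pattern was found in 24 (0.041%), beside 0.0394% of all regions. Both shares lay near those of all regions, and with lists cut to an equal length of 70006 peaks the number was 22 for MNA and also 22 for single copy lines. The 53 regions had a median of 2.41 CpG per 100 bp and the 24 a median of 2.92, and none of the 53 and 3 of the 24 had the composition of a CpG island, beside 3.59% of all distal regions. By chromosome, 13 of the 53 lay on chromosome 1 (24.5%, against 10% of all distal regions), 7 on chromosome 5 (13.2% against 6.93%) and 6 on chromosome 8 (11.3% against 5.16%). Of its distal peaks, LAN-2 had 1.43 times the mean share of the lines on chromosome 1, IMR-32 1.20, N206 1.03 and CHP-902R 0.711 times. On chromosome 5 LAN-2 had 1.63, CHP-902R 1.08, N206 0.942 and IMR-32 0.811 times. On chromosome 8 CHP-902R had 1.17, IMR-32 1.00, N206 0.987 and LAN-2 0.773 times. The part of these shares in the counts of regions was not tested.

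Of the regions for MNA lines, chr1:111253073-111253824 lay 35.5 kb from the potassium channel gene *KCNA3* and scored 168.82 in LAN-2, 152.46 in N206, 135.77 in IMR-32 and 77.49 in CHP-902R. The region chr1:91031687-91032228, 145 kb from the homeobox gene *BARHL2*, scored 88.2 to 140. In chr5:22900807-22901435, 47.4 kb from the cadherin gene *CDH12*, LAN-2 scored 239.55 and the other MNA lines 86.3 to 101. The last was chr15:80294988-80295914, 31.5 kb from *BCL2A1*, a gene of the anti-apoptotic BCL2 family, with scores of 90.9 to 124. These are the nearest protein-coding genes. The nearest gene of any type lay 27.8, 32.7, 47.4 and 10.6 kb away, in the order of the regions given.

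For each direction 4 regions are described, and the region of the highest mean percentile is not among them. Those for single copy lines had mean score percentiles of 65.6 to 70.5, and those for MNA lines 83.3 to 88.2. The region chr2:154077600-154078495, 255 kb from *RPRM*, a gene of p53-dependent cell cycle arrest, scored 78.0 to 95.0. The region chr2:127643087-127644771, with 4.57 CpG per 100 bp the richest in CpG of the separating regions named, lay 11.7 kb from *TEX51* and scored 147.22 in CLB-GA and 53.74 in SK-N-AS. In chr11:39244046-39245297, 890 kb from *LRRC4C*, the highest peaks of the 4 lines had no stretch in common. The last, chr5:118767762-118768858, lay 19.3 kb from *HSD17B4*, which codes for an enzyme of peroxisomal fatty acid oxidation. Here too the genes named are the nearest protein-coding ones. The nearest gene of any type lay 12.9, 11.7, 37.4 and 12.6 kb away, in the order of the regions given. The lowest score in a list is 50, so a line without a peak in these regions may lie just under the threshold of the peak calling.

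The lines differed in where on the autosomes their distal peaks lay. A relative share was computed as the share of a line's distal peaks on a chromosome divided by the mean share of the 8 lines. Chromosome 15 held 535 distal peaks in IMR-32 (relative share 1.75) and 124 in SJNB-1 (0.513), and 218 to 358 in the other 6 lines. LAN-2 had a relative share of 1.63 on chromosome 5 and 0.374 on chromosome 19, where it had 46 distal peaks. SK-N-AS had 1.60 on chromosome 4, and N206 had 0.544 on chromosome 9 and 1.49 on chromosome 22. The other peaks of the same line shifted alike, with a Pearson correlation of the relative shares of distal and other peaks between 0.854 in LAN-2 and 0.932 in SK-N-AS over 22 chromosomes, which share the library and its depth. Copy number of the chromosomes was not analysed here and its part in these differences was not tested.

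**Figure D5:**
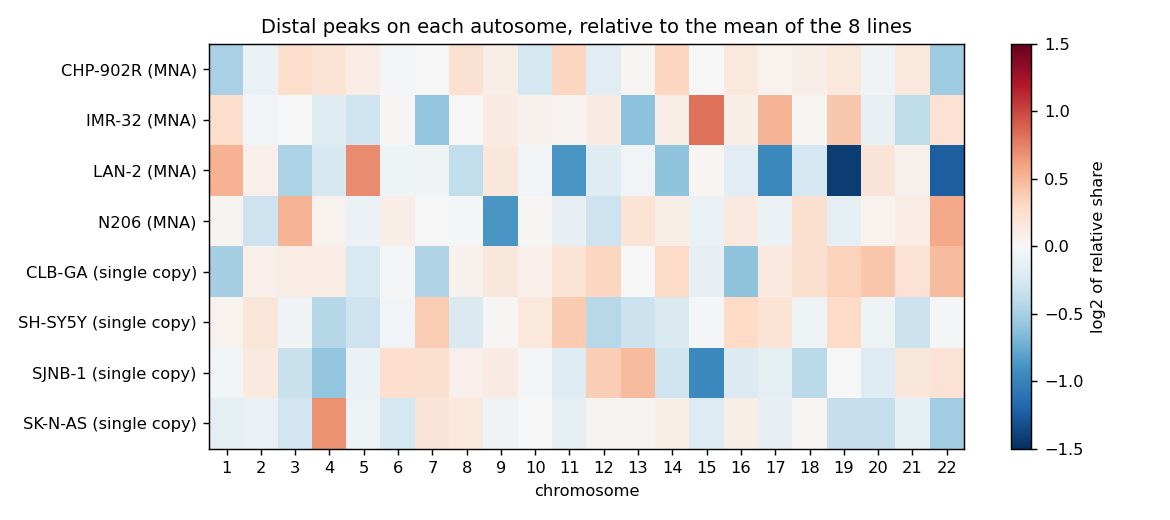
Share of a line's distal peaks on each autosome relative to the mean share of the 8 lines, as log2 (color), with lines in rows and chromosomes in columns. Red fields are above and blue fields below the mean of the lines, and the deepest blue field is chromosome 19 in LAN-2 (relative share 0.374).

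A single 1 Mb window stood apart. In IMR-32, chr2:67000001-68000000 held 168 peaks, 5.24 times the mean of its windows, and 57 of these were distal. The other lines had 12 to 23 peaks there, of which 4 to 10 were distal, so distal and other peaks were both more numerous in IMR-32. Distal sequence next to *MEIS1*, the homeobox gene before this window, had a cover of 14.6% in IMR-32 and of 0.354 to 0.973% in the other lines. Copy number of this part of chromosome 2 was not analysed here, and its part in these values was not tested.

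Distal sequence was assigned to its nearest protein-coding gene to describe the flanks of gene lists, with no test. Over all distal sequence the median cover of the 8 lines was 1.16%. The strongest deviation was that of olfactory receptor genes, which code for odorant receptors and lie in clusters. Flanks were found for 142 of 398 genes, with 2.76 Mb of sequence and a median cover of 0.170% (0.0145 to 0.289%). Against distal sequence of equal CpG content this was -2.97 ± 1.43 on the log2 scale (SD, n = 8), and lower in 8 of 8 lines. Of the 142 genes, 140 had a median cover below that of distal sequence of equal CpG content, but 138 had a median of 0 in flanks with a median length of only 5.8 kb. Over all 7790 protein-coding genes with distal flanks, 72.8% lay below and 48.0% had a median of 0, so that a count of genes below follows in part from short flanks. Only 68.4% of sampled windows in these flanks were unique in the genome, against 91.4% of all distal windows, and its part in the low cover was not tested.

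Flanks of homeobox and PAX genes, regulators of body pattern and cell fate, had a median cover of 1.06% (0.289 to 1.77%), and the log2 difference at equal CpG content was -0.75 ± 0.72, lower in 8 of 8 lines. Without *IRX2* it was -0.60, with 1 line above 0. The 1.77% was that of IMR-32, where *MEIS1* of this list had 14.6%. Of the genes, 42 of 56 (75.0%) lay below, a share near the 72.8% of all genes. Among the 20 with at least 100 kb of flank 15 lay below (75%), against 65.9% of all genes with such flanks. Around *IRX2*, the median cover was 1.01% where 2.72% would match its CpG content, and around the neighbouring *IRX1* it was 0.640% where 1.94% would. For zinc finger genes, most of which code for DNA-binding repressors, the log2 difference was -0.32 ± 0.18 and lower in 8 of 8 lines. Below were 135 of 166 genes (81.3%), of which 104 had a median of 0. Among the 19 with at least 100 kb of flank 14 lay below (73.7%), against 65.9% of all genes with such flanks. In their flanks 79.8% of sampled windows were unique.

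Adrenergic core factors, the transcription factors that define the sympathetic identity of most NB cells, had the highest median cover of the 8 lists, at 1.79% (1.62 to 2.34%). The log2 difference at equal CpG content was 0.84 ± 0.31 (SD, n = 8), higher in 8 of 8 lines. Of the 10 genes with distal flanks, 4 were above and 6 (60%) below, beside 72.8% below among all protein-coding genes with distal flanks. The difference of the list is thus not one of most of its genes. *SOX11*, a SOX factor of neural precursors, took the largest part. Its 1.05 Mb of flanks had a cover of 2.81% in LAN-2, 2.62% in CHP-902R, 2.56% in N206 and 2.52% in IMR-32, and, among single copy lines, of 4.61% (SH-SY5Y), 2.88% (SJNB-1), 2.56% (CLB-GA) and 2.24% (SK-N-AS). All 8 lines lay above the 1.35% that matches its CpG content, and SH-SY5Y stood highest. Without *SOX11* the list's log2 difference was 0.51, still above 0 in 8 of 8 lines. *GATA3*, which codes for a zinc finger factor of sympathetic neurons, had a cover of 1.31 to 3.82% in 0.975 Mb, also above its matched value in 8 of 8 lines. The shorter flanks of *HAND2* (median 3.21%) and *GATA2* (5.56%) were above in 7 and 6 lines, and those of *TFAP2B* (0.345%) and *ISL1* (0.490%) in 3 and 4.

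Mesenchymal regulators, factors of the other cell state known in NB, had distal flanks for only 5 of 10 genes. The log2 difference was 0.22 ± 0.65 and turned to -0.75 without *SNAI2*, a factor of neural crest migration. Forkhead and SOX genes had 0.20 ± 0.19, which turned to -0.09 without *SOX11*. Axon guidance genes had 0.22 ± 0.18, and 0.07 without *PLXNA2*. Cadherins and protocadherins had a median cover of 0.677%, the second lowest of the lists, but at equal CpG content the log2 difference was -0.14 ± 0.33, above 0 in 3 of 8 lines.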

How the data were processed

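One MBD-seq library of each of the 8 NB lines was used. Per the labels and methods, the authors aligned read pairs to GRCh37 (Bowtie 0.12.7) and ran MACS on every line separately. The deposited score of a peak, which the authors' peak caller derives from its p-value (lowest score 50, or a p-value of 1e-05), is printed per line as deposited and was compared between lines only as a percentile of the list or against the threshold of 100. Options of the peak calling and an input control are not given in the sources used here. No column of the lists was left out for lack of a sample, and the lists hold no read counts, so no interval for counting error could be given.

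Positions, CpG content, repeat periods and copies of 45 bp stretches were computed from GRCh37 and GENCODE release 44 in GRCh37 coordinates (64486 genes) with Python 3.11.15, numpy 2.4.6, pandas 2.3.3 and numba 0.67.0. Windows of 200 bp without undetermined bases were grouped by their CpG count (0, 1, 2, 3, 4 to 5, 6 to 9, 10 to 14, 15 or more), and cover at equal CpG content weights these classes alike. Composition of a CpG island means a GC content over 50% and an observed to expected CpG ratio over 0.6. Overlap of 1 bp merged peaks into regions, and a region is distal where all its peaks are. MNA and single copy lines were compared by two-sided exact permutation of the group labels, and paired values by two-sided exact sign-flip permutation tests, adjusted after Benjamini-Hochberg. The cover and region steps were tested on simulated data.

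Regions are named by a rule: the 10 distal regions in all lines and 5 per direction that separate the *MYCN* groups with the highest mean score percentile, the top distal peak of each line and the shared region farthest from genes. For 4 of these regions, the first in each direction among them, the values are not reported here. The members, lists and tests were chosen with earlier results of these data known. The repeat period, the unique windows, the TSS filter, the weighting to all autosomal windows and the tests by CpG class were added after seeing the data, as were the genes singled out within lists. Alternatives were a score of at least 100, lists of equal length, distances of 5 and 50 kb, protein-coding genes only, the whole peak far from genes, peaks within 500 bp merged, extreme 1 Mb windows left out and each line left out.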

Additional observations from a re-analysis of the deposited data

How the results depend on the processing

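Restricted to scores of at least 100, the log2 cover difference at equal CpG content was -0.09 (-0.0890, exact p = 0.0625), that of far over near sequence was -0.0848 (exact p = 0.523), and the regions separating the *MYCN* groups numbered 9 for MNA and 1 for single copy lines, with 32 regions in all lines; fewer peaks entered by construction. With lists of equal length, 22 regions separated MNA and 22 single copy lines, and the group difference in the log2 cover ratio, -0.0160 in all peaks, was 0.0215. At 50 kb from genes the CpG difference was -0.0626 per 100 bp (exact p = 0.0703), with 19 and 9 separating regions and 90 in all lines. Against protein-coding genes only, where far more peaks count as distal, these numbers were 130, 40 and 759. Far and near sequence could not be compared at 50 kb, since no near windows remain. With each line left out, separating regions numbered 84 to 232 (MNA) and 34 to 100 (single copy), as 7 lines ask less of a region. The group difference in peak number then ran from 2279 to 3594. It passed the threshold only without SK-N-AS, whose removal ends the overlap of the groups and so fixes that p in advance. The group difference in share ran from -0.332 to 0.796 points and that in the log2 cover ratio from -0.0638 to 0.0268, never past the threshold. Over all CpG counts, the paired differences between distal and other sequence kept their direction under each alternative run and each line left out, and lost the test only where given above. Without TSS windows, the distal to other ratio went from 1.74 to 0.938-fold at 15 or more CpG and from 1.09 to 0.997-fold at 10 to 14 CpG. MNA lines could not be paired with single copy lines, because the lines of the *MYCN* groups are unrelated cultures whose labels carry no replicate numbers. The lists give no read counts at peaks, which limits what the absence of a peak shows.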

Other observations

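CLB-GA, the line with the fewest distal peaks, also had the distal peaks of the highest CpG content, with a median of 3.13 CpG per 100 bp against 2.27 to 2.64 in the other lines. Its distal peaks covered 4.98 Mb, the smallest length of the 8 lines, and IMR-32 had the largest with 8.06 Mb. In CLB-GA 24.9% of the distal peaks held over 4 CpG per 100 bp and 2.29% held fewer than 1.5, whereas SK-N-AS had 10.8% and 17.6%. A peak of another line was met by 74.0% of the distal peaks of CLB-GA, the highest share, and by 62.9% of those of SK-N-AS, the lowest.

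A run of 14 bases, gcacagccaggcac, was shared by the single copy region 255 kb from *RPRM* and by the region 409 kb from *ALCAM* found in all 8 lines. On chromosome 17, the autosome with the highest distal density, the mean was 40.4 ± 10.9 distal peaks per Mb (SD, n = 8), and chromosomes 4 and 3 had the lowest means with 15.3 ± 5.77 and 15.5 ± 4.64.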
